A study of Homo sapiens with 12 samples.

Results

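The human mitochondrial genome carries 37 genes, namely 13 protein genes, 2 ribosomal RNA (rRNA) genes and 22 transfer RNA (tRNA) genes. All 37 were taken here, as every gene that release 29 of the GENCODE annotation places on chrM, out of 57865 genes in the table. The estimated counts of their transcripts were summed per gene, and the rule itself uses position only. The 12 libraries came from 4 established human cell lines of acute myeloid leukaemia (KG-1a, MV4-11, OCI-AML3 and MOLM-14). Cells of every line were exposed for 12 h to pioglitazone (10 µM), to darglitazone (10 µM) or, as the control, to DMSO. Each line had 1 library per treatment, so the line was the replicate (n = 4 per treatment). Pioglitazone and darglitazone belong to the thiazolidinediones, which bind the nuclear receptor PPARγ. MOLM-14 and MV4-11 are lines with a fusion of KMT2A, and each line descends from a single patient, so a difference between lines is a difference between 4 individual leukaemias.

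Mitochondrial DNA is transcribed by the polymerase POLRMT with the factors TFAM and TFB2M, which are encoded in the nucleus. Each strand is read as a long precursor. The tRNAs that lie between most rRNA and protein genes are cut out of it, and this releases the other RNAs, whose later levels then depend on how fast each is degraded. The protein genes encode subunits of the respiratory chain complexes I, III and IV and of the ATP synthase, and the rRNAs and tRNAs serve the ribosomes inside mitochondria. Myeloid leukaemia cells are known to rely on this respiration.

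Total counts ran from 1.1 M in the OCI-AML3 pioglitazone library to 64.24 M in the OCI-AML3 DMSO library. The limit that a count of 0 allows, 3 counts, was 2.74 CPM (counts scaled to 1e+06 per library) in the shallowest library and 0.047 CPM in the deepest, for counting error only. A pair of libraries stood apart. FP671120.3, which lies in nuclear ribosomal DNA, took 23.5% of the counts of the KG-1a pioglitazone library and 6.17% of those of the OCI-AML3 pioglitazone library. The DMSO libraries gave 0.145% or less. For 62 genes specific to KG-1a, the OCI-AML3 pioglitazone library showed a median of 2.05% of the level in KG-1a, and for 6 genes specific to MV4-11 the KG-1a darglitazone library showed 3.94% of the level in MV4-11. The MV4-11 DMSO library showed 2.19% of the level in MOLM-14 for 4 genes specific to MOLM-14 and 1.55% of the level in OCI-AML3 for 11 genes specific to OCI-AML3. A gene counted as specific to a line only if it was low in every library of the other lines. This rule itself keeps these shares low, so they cannot show a larger one. The 6 myeloid and blast markers summed to 506 to 2788 CPM in each library. PTPRC (108 to 491 CPM), SPI1 (69.1 to 242 CPM) and CD33 (35.6 to 173 CPM) were well above 1 CPM in all libraries. The others ranged more widely, with CD34 from 0.0839 to 725 CPM, MPO from 1.07 to 64.8 CPM and LYZ from 16.3 to 2288 CPM. The T-cell markers (4 of 4 reached 1 CPM) summed to 0.106 to 37.2 CPM, the B-cell markers (2 of 3) to at most 19.1, the epithelial markers (3 of 4) to at most 11.2, and the erythroid and fibroblast markers (0 of 4 each) to at most 0.644 and 1.16 CPM. HBB, HBA1, ALAS2, MS4A1 and KRT19 were at 0 in all 12 libraries. The library kit removes rRNA from total RNA. Whether this removal also targets the mitochondrial rRNAs is unknown, so their levels may be those left after removal. The part of removal in any difference was not tested.

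The rRNA genes held most of the mitochondrial signal. They took 95.3% to 98.1% of the chrM counts and 6.75% to 13.3% of all counts, and the 13 protein genes together took 0.17% to 0.401% of all counts. With pioglitazone, darglitazone and DMSO, the protein genes took 0.401, 0.347 and 0.316% in MOLM-14, 0.201, 0.324 and 0.234% in KG-1a, 0.333, 0.210 and 0.193% in OCI-AML3 and 0.202, 0.234 and 0.170% in MV4-11. The KG-1a pioglitazone library is the exception among 8 drug libraries, as its share lies below that of its DMSO library. As a share of the counts of nuclear protein-coding genes it lies above, at 0.363% with pioglitazone against 0.302% with DMSO. The rRNA counts were 20.1 to 22.9 times the protein-gene counts in MOLM-14, against 32.3 to 35.0 times in OCI-AML3, 40.2 to 42.2 times in MV4-11 and 41.0 to 51.3 times in KG-1a. The 3 MOLM-14 libraries thus had less rRNA per protein-gene count than the other 9, and the MV4-11 and KG-1a ranges overlap.

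**Figure D1:**
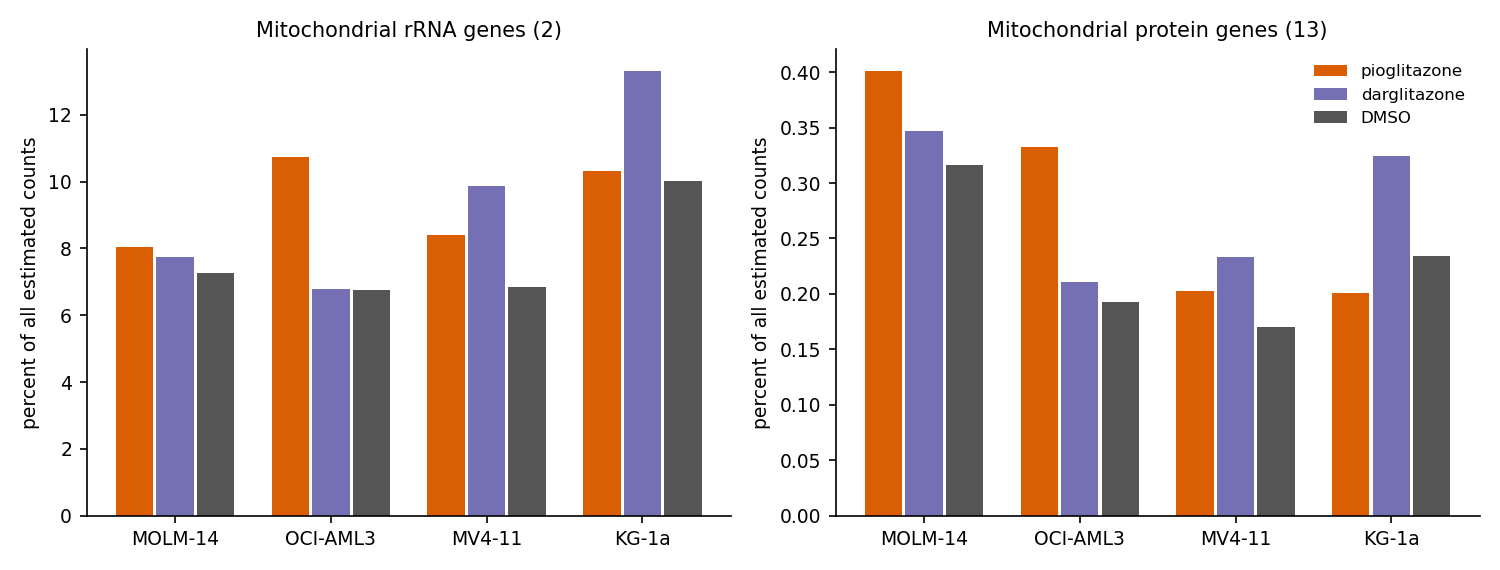
Percent of all estimated counts in the 2 mitochondrial rRNA genes (left) and the 13 mitochondrial protein genes (right), 1 bar per library, grouped by cell line and coloured by treatment. The rRNA share is highest in KG-1a with darglitazone (13.3%), and the protein-gene share is highest in MOLM-14 with pioglitazone (0.401%).

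MT-RNR1 (chrM 648 to 1601, plus strand) encodes the 12S rRNA of the small subunit of the mitochondrial ribosome. In the pioglitazone, darglitazone and DMSO libraries it stood at 15647, 16278 and 13135 CPM in KG-1a, against 9021, 9179.7 and 9589.7 CPM in MOLM-14, 14055, 8055 and 6794 CPM in OCI-AML3 and 7921, 8394 and 6374 CPM in MV4-11. All CPM of single genes were scaled by TMM, a correction for differences in RNA composition. MT-RNR2 (chrM 1671 to 3229, plus strand) encodes the 16S rRNA of the large subunit. It stood at 120663, 116488 and 85688 CPM in KG-1a, against 70714, 68932 and 62934 CPM in MOLM-14, 89259, 57297 and 57999 CPM in OCI-AML3 and 73982, 88579.8 and 57167 CPM in MV4-11. The KG-1a libraries lay above most others. The OCI-AML3 pioglitazone library was within the KG-1a range for both rRNAs, and the MV4-11 darglitazone library was within it for MT-RNR2.

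Both rRNAs were higher in KG-1a than in the mean of the other 3 lines. The log2 fold change was 0.78 (SE 0.15) for MT-RNR1 with an adjusted p of 0.00187 and 0.62 (SE 0.11) for MT-RNR2 with an adjusted p of 0.001, in edgeR's quasi-likelihood test with Benjamini-Hochberg adjustment. Of the 15424 genes tested, 26.9% were called higher in KG-1a. In MV4-11, MT-RNR1 was lower (-0.54, SE 0.16, adjusted p = 0.0263), while MT-RNR2 had -0.12 (SE 0.12, adjusted p = 0.485). The MV4-11 call of MT-RNR1 was lost under DESeq2's size factors (adjusted p = 0.0539), with thinned counts (0.113) and without the MV4-11 pioglitazone (0.114) or DMSO library (0.12). In line comparisons the 3 libraries of a line differ in treatment and are not repeat cultures, so these p-values measure the spread between libraries once the mean effect of each treatment is taken out. In bulk samples, fewer cells of a kind and less RNA per cell cannot be told apart.

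The ratio of the rRNAs to each other was highest in MV4-11. MT-RNR2 had 9.34, 10.6 and 8.97 times the counts of MT-RNR1 in the MV4-11 pioglitazone, darglitazone and DMSO libraries, against 7.84, 7.51 and 6.56 in MOLM-14, 6.35, 7.11 and 8.54 in OCI-AML3 and 7.71, 7.16 and 6.52 in KG-1a. The MV4-11 libraries lie above the other 9, and the ranges of the other 3 lines overlap. Per kb of gene, the ratio ran from 3.89 to 6.46 over all 12 libraries. These genes are neighbours on one precursor, and the ratio was described and not tested.

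Among the protein genes, ranked per kb, the same genes held the leading places, in either order, and the last place in all libraries. The places between them changed, with MT-ND3 ranging from 3 to 8 and MT-CYB from 5 to 11. Per kb of gene, MT-CO3 and MT-CO1, core subunits of cytochrome c oxidase (complex IV), held the first and second place in every library. MT-CO3 averaged 970 ± 286 CPM per kb and MT-CO1 633 ± 171 CPM per kb (SD, n = 12). The third complex IV gene, MT-CO2, averaged 261 ± 153 CPM per kb. MT-ND3 (181), MT-ATP6 (165), MT-ND4 (152), MT-ND4L (112), MT-CYB (103) and MT-ND1 (82.4) followed, each with ranges over the libraries that overlap those of its neighbours in this order. MT-ATP8 (57.0), MT-ND5 (41.1) and MT-ND2 (28.0) had the lowest means among the 12 protein genes of the plus strand. MT-ND6, the complex I gene on the minus strand, averaged 2.74 ± 2.66 CPM per kb and was last in all 12 libraries.

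**Figure D2:**
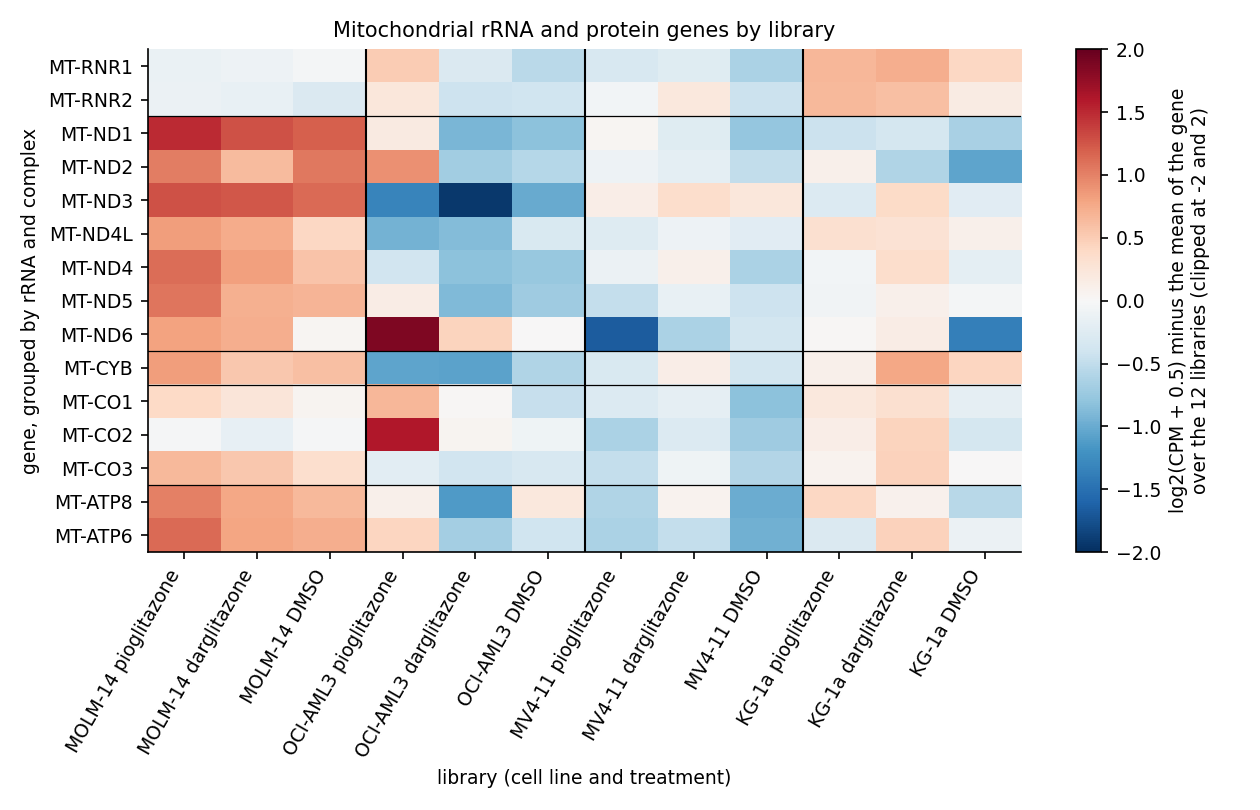
Level of the 2 rRNA and 13 protein genes in each library, as log2(CPM + 0.5) minus the mean of the gene over the 12 libraries, with red above and blue below that mean and vertical lines between cell lines. The complex I genes and MT-ATP6 and MT-ATP8 are above their means in nearly all MOLM-14 libraries, and MT-ND3 and MT-CYB are below theirs in the 3 OCI-AML3 libraries.

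Of the 37 genes, 18 had enough counts to be tested, namely both rRNA genes, all 13 protein genes and 3 tRNA genes, and 15 of these 18 differed between the cell lines in an F test of the line terms (edgeR, adjusted p under 0.05). The share of all genes tested that did so was 72.6%, so most genes of any kind differed between these lines. The exceptions were MT-ND6, MT-CO2 and MT-TF, of which MT-CO2 (adjusted p = 0.125) passed with no filter on low counts (adjusted p = 6.98e-08), without the OCI-AML3 pioglitazone library (adjusted p = 0.0123) and without the pioglitazone libraries of OCI-AML3 and KG-1a (adjusted p = 0.0353). Without the OCI-AML3 darglitazone library MT-TF passed as well (adjusted p = 0.0436), and in OCI-AML3 it was then called higher (2.21, adjusted p = 0.0205). The 3 protein genes with the smallest p were MT-ND1 (adjusted p = 3.64e-07), MT-ND3 (6.74e-06) and MT-ND4 (9.08e-06), which encode membrane subunits of complex I, the NADH dehydrogenase. Of the 15, 12 stayed past the threshold under every alternative setting and with each library left out, and MT-ATP8, MT-TL1 and MT-TM did not.

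MOLM-14 had the highest levels of most protein genes. Of the 13, 11 were higher in MOLM-14 than in the mean of the other lines, with a median log2 fold change over the 13 of 1.03, against a median of 0.04 over all genes tested, of which 23.5% were called higher. The rRNAs were not called in this comparison, with -0.12 for MT-RNR1 and -0.25 (adjusted p = 0.121) for MT-RNR2. MT-RNR2 was called lower with no filter on low counts (-0.20, adjusted p = 0.0442) and without the OCI-AML3 darglitazone library (-0.30, adjusted p = 0.0127). In 7 protein genes (MT-ND1, MT-ND3, MT-ND4, MT-ND4L, MT-ND5, MT-ATP6 and MT-ATP8) all 3 MOLM-14 libraries lay above the other 9, as 9.62% of all genes tested did.

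MT-ND1 (chrM 3307 to 4262, plus strand) stood at 186, 159 and 151 CPM in the MOLM-14 pioglitazone, darglitazone and DMSO libraries, against 74.6, 34.8 and 37.1 CPM in OCI-AML3, 67.4, 55.3 and 38.4 CPM in MV4-11 and 48.5, 51.7 and 42 CPM in KG-1a. The 3 MOLM-14 libraries lay above all others, and the log2 fold change was 1.77 (SE 0.14, adjusted p = 1.33e-07, edgeR). Relative to MT-CO1, MT-ND1 reached 23.0 to 24.8 per 100 per kb in MOLM-14, against 5.89 to 13.9 in the other lines. MT-ND4 (chrM 10760 to 12137, plus strand) stood at 414, 338 and 284 CPM in MOLM-14, against 147, 108 and 113 CPM in OCI-AML3, 177, 205 and 124 CPM in MV4-11 and 184, 244 and 167 CPM in KG-1a. Its log2 fold change in MOLM-14 was 1.11 (SE 0.13).

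MT-ND2 (chrM 4470 to 5511, plus strand), a further complex I gene, stood at 52.7, 40.3 and 54.2 CPM in MOLM-14, against 49.1, 15.8 and 17.2 CPM in OCI-AML3, 23.9, 22.6 and 18.2 CPM in MV4-11 and 27.6, 16.8 and 12.1 CPM in KG-1a. The OCI-AML3 pioglitazone library, the shallowest, lies within the MOLM-14 range, and the others lie below it. The log2 fold change in MOLM-14 was 1.26 (SE 0.21). MT-ND5 and MT-CYB, the cytochrome b of complex III, had log2 fold changes of 1.11 and 0.88.

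In MOLM-14 the complex IV genes had smaller fold changes than the complex I genes named above, a contrast that was not tested. MT-CO3 had a log2 fold change of 0.68 (SE 0.10, adjusted p = 9.66e-05). MT-CO1 had 0.31 (SE 0.12, adjusted p = 0.0487), a call that was lost under DESeq2's size factors (0.27, adjusted p = 0.109) and without the MOLM-14 DMSO library (0.18, adjusted p = 0.406), and under further alternatives. MT-CO2 had -0.11 and was not called. MT-CO1 (chrM 5904 to 7445, plus strand) stood at 1242, 1114 and 979 CPM in MOLM-14, 1485, 954 and 688 CPM in OCI-AML3, 781, 828 and 535 CPM in MV4-11 and 1089, 1179 and 833 CPM in KG-1a, so that the MV4-11 libraries lay below those of MOLM-14 and KG-1a and the other line ranges overlap. Of the 12 MOLM-14 calls (11 protein genes and MT-TL1), 9 stayed past the threshold under every alternative, and MT-CO1, MT-ATP8 and MT-TL1 did not.

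OCI-AML3 showed lower levels of 7 protein genes, MT-ND1, MT-ND3, MT-ND4L, MT-ND4, MT-ND5, MT-CYB and MT-CO3, and no higher call, where 19.4% of all genes tested were called lower and 23% higher. MT-ND3 (chrM 10059 to 10404, plus strand) stood at 20.2, 13.1 and 25.3 CPM in the OCI-AML3 pioglitazone, darglitazone and DMSO libraries, against 124, 122 and 113 CPM in MOLM-14, 56.4, 65.2 and 60.01 CPM in MV4-11 and 42.1, 67 and 43.6 CPM in KG-1a. All OCI-AML3 libraries lay below and all MOLM-14 libraries above the others, and the MV4-11 and KG-1a ranges overlap. The log2 fold change of MT-ND3 was -1.90 (SE 0.22, adjusted p = 2.01e-05) in OCI-AML3 and 1.63 (SE 0.17, adjusted p = 8.1e-06) in MOLM-14. MT-CYB and MT-ND4L were also below the other 9 libraries in all 3 OCI-AML3 libraries, as 7.23% of all genes tested were. MT-CYB had a log2 fold change of -1.21 (SE 0.17). The calls of MT-ND5 (-0.68, SE 0.18) and MT-CO3 (-0.41, SE 0.11) were lost without the OCI-AML3 darglitazone library (-0.46, adjusted p = 0.0632, and -0.27, adjusted p = 0.0683). That of MT-ND5 was also lost with thinned counts (-0.64, adjusted p = 0.089) and without the OCI-AML3 DMSO library (-0.64, adjusted p = 0.0501). The other 5 stayed past the threshold under every alternative. MT-CO2 had the opposite sign (0.77, SE 0.31, adjusted p = 0.077). In OCI-AML3 it stood at 493 CPM with pioglitazone, in the shallowest library, against 168 CPM with darglitazone and 153 CPM with DMSO. The latter levels lie within the KG-1a range of 126 to 222 CPM. Over all alternatives the log2 fold change of MT-CO2 in OCI-AML3 ran from 0.17 to 1.10, with an adjusted p of up to 0.424. MT-CO2 was called higher in OCI-AML3 with no filter on low counts (0.79, adjusted p = 7.34e-07), without the OCI-AML3 darglitazone library (1.10, adjusted p = 0.0365), without the KG-1a darglitazone library (0.83, adjusted p = 0.0468) and without the MOLM-14 DMSO library (0.85, adjusted p = 0.0485). With the pioglitazone libraries of OCI-AML3 and KG-1a left out, the count of chrM genes called in OCI-AML3 was 11 in place of 7. Neither rRNA was called in OCI-AML3 by the main fit, with -0.12 for MT-RNR1 (adjusted p = 0.6) and -0.26 for MT-RNR2 (adjusted p = 0.113). Without the OCI-AML3 pioglitazone library both were called lower (-0.43, adjusted p = 0.00149, and -0.42, adjusted p = 0.0206). MT-RNR2 was also called lower with no filter (-0.22, adjusted p = 0.0237) and by limma-voom (-0.32, adjusted p = 0.0467).

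In MV4-11, 4 protein genes were lower, namely MT-CO1 (-0.57, SE 0.12), MT-CO3 (-0.51, SE 0.11), MT-ATP6 (-0.93, SE 0.22) and MT-ND1 (-0.42, SE 0.15), with 17.5% of all genes tested called lower. MT-CO2 had -0.74 (SE 0.32, adjusted p = 0.105) and was called lower with no filter (adjusted p = 1.53e-05), without the OCI-AML3 pioglitazone library (adjusted p = 0.00435) and without the pioglitazone libraries of OCI-AML3 and KG-1a (adjusted p = 0.0115). MT-ND5 had -0.43 (SE 0.17, adjusted p = 0.0501 in edgeR), just short of the threshold. It was called lower with no filter (-0.46, adjusted p = 0.0305), by limma-voom (-0.36, adjusted p = 0.0394) and under further alternatives. The calls of MT-CO1, MT-CO3 and MT-ATP6 stayed past the threshold under every alternative. That of MT-ND1 did not, as with the counts thinned to the depth of the shallowest library (-0.31, adjusted p = 0.186) or without the MV4-11 DMSO library (-0.29, adjusted p = 0.268). The count of chrM genes called in MV4-11 was 7 in all, against 3 without the MV4-11 DMSO library, 4 without the MV4-11 pioglitazone library and 4 with thinned counts. In KG-1a, MT-CYB was higher (0.57, SE 0.15) while MT-ND1 (-0.63, SE 0.16) and MT-ND2 (-0.70, SE 0.24) were lower, where 27.2% of all genes tested were called lower. The KG-1a call of MT-CYB was lost without the KG-1a darglitazone library (0.39, adjusted p = 0.101), and the count of 5 chrM genes called in KG-1a was then 3. That of MT-ND2 was lost without the KG-1a DMSO library (-0.51, adjusted p = 0.159) or the KG-1a darglitazone library (-0.77, adjusted p = 0.0539). It was also lost with nuclear protein-coding counts as the library size (-0.60, adjusted p = 0.0695). MT-CO3 had 0.24 in KG-1a (SE 0.10, adjusted p = 0.0646 in edgeR). It was called higher by DESeq2 (0.28, adjusted p = 0.0294) and under further alternatives.

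**Figure D3:**
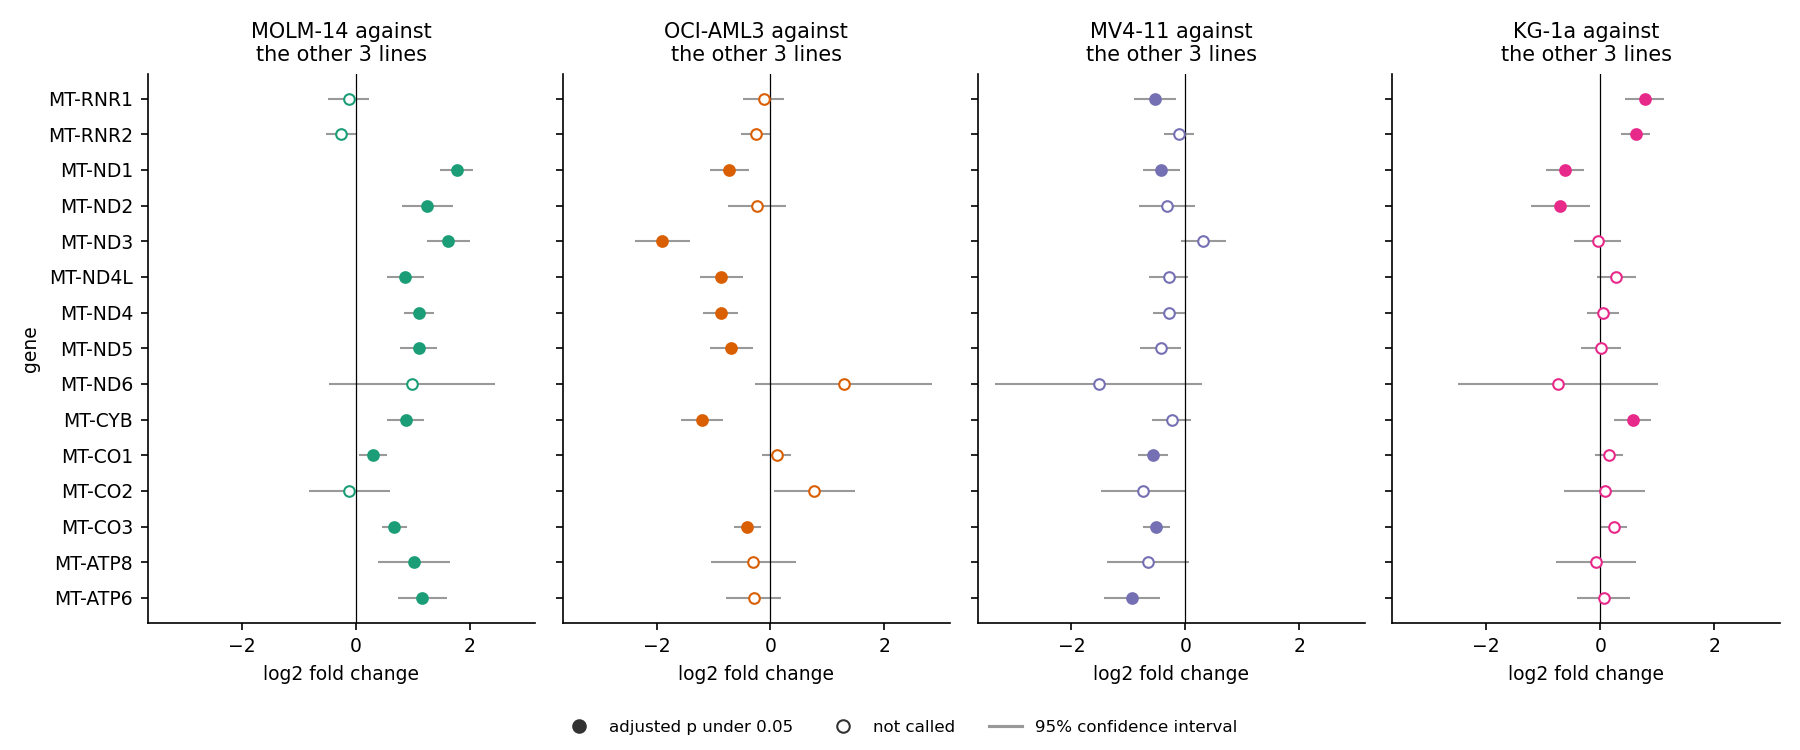
Log2 fold change of each line against the mean of the other 3 lines for the rRNA and protein genes, with bars for the 95% confidence interval and filled points where the adjusted p was under 0.05. In MOLM-14, 11 of 13 protein genes are filled and above 0 while both rRNAs are open, in OCI-AML3 7 protein genes are filled and below 0, and in KG-1a both rRNAs are filled and above 0.

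The balance between complex I and complex IV genes differed in order by line. The mean level per kb of the 7 complex I genes was 0.201, 0.196 and 0.198 of that of the 3 complex IV genes in the MOLM-14 pioglitazone, darglitazone and DMSO libraries. It was 0.161, 0.146 and 0.170 in MV4-11, 0.111, 0.111 and 0.116 in KG-1a and 0.0681, 0.0673 and 0.0968 in OCI-AML3. The ranges of the 4 lines do not overlap. Both drug libraries lay below the DMSO library in OCI-AML3, MV4-11 and KG-1a. The log2 ratio to DMSO was -0.51 with pioglitazone and -0.52 with darglitazone in OCI-AML3, -0.08 and -0.22 in MV4-11, and -0.07 with either drug in KG-1a. In MOLM-14 it was 0.02 with pioglitazone and -0.02 with darglitazone. The balance was described and not tested.

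**Figure D4:**
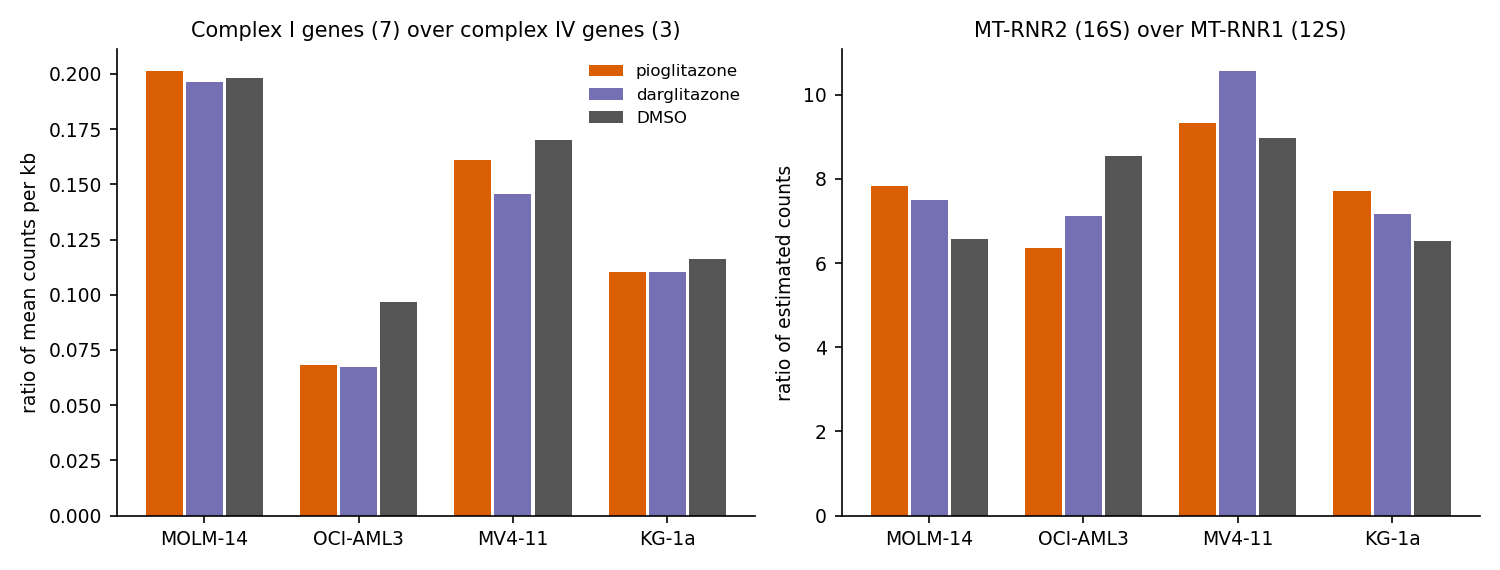
Ratio of the mean counts per kb of the complex I genes to those of the complex IV genes (left), and ratio of MT-RNR2 to MT-RNR1 counts (right), 1 bar per library, grouped by cell line and coloured by treatment. The complex I share is highest in the 3 MOLM-14 libraries (0.196 to 0.201) and lowest in the 3 OCI-AML3 libraries (0.0673 to 0.0968), and MT-RNR2 is highest relative to MT-RNR1 in MV4-11.

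The ATP synthase genes share an RNA, since MT-ATP8 (chrM 8366 to 8572) runs into MT-ATP6 (chrM 8527 to 9207) on the plus strand, and the same holds for the complex I genes MT-ND4L (chrM 10470 to 10766) and MT-ND4. Reads from the shared bases can be given to either gene, so the levels of each pair are uncertain against each other. MT-ATP6 and MT-CO3 also share 1 base. The 2 longer junctions are shown because they are the longest stretches that the counting had to divide. Both are read 5′ to 3′ from the reference transcripts of GENCODE 29 (build GRCh38), with the bases in both genes in capitals, at chrM:8512-8587 and chrM:10745-10781.
MT-ATP8/MT-ATP6: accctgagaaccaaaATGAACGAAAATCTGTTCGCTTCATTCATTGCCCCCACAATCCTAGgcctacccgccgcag
MT-ND4L/MT-ND4: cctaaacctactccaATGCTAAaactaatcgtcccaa
The first pair shares 46 bases and the second 7, and each block of capitals opens with the ATG start codon of the downstream gene.

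MT-ATP6, the proton channel subunit, stood at 224, 175 and 168 CPM in the MOLM-14 pioglitazone, darglitazone and DMSO libraries, against 137, 62.9 and 76.8 CPM in OCI-AML3, 65.1, 72.5 and 52 CPM in MV4-11 and 83.3, 140.1 and 93.8 CPM in KG-1a. Near-identical copies in the nuclear genome held counts equal to 15.7% of those of MT-ATP6 over the 12 libraries. With these copies added, its log2 fold change in MOLM-14 was 1.17 (adjusted p = 0.000567), as without them (1.17, SE 0.20, adjusted p = 0.000608). For MT-ND2 the copies held 3.55%, for MT-ND1 1.22% and for the others at most 0.76%.

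MT-ATP8, the small subunit beside it, stood at 21.9, 18.5 and 16.9 CPM in MOLM-14, against 11.4, 4.61 and 12.4 CPM in OCI-AML3, 6.86, 11.2 and 5.08 CPM in MV4-11 and 14.3, 11.3 and 7.13 CPM in KG-1a. Per kb it reached 0.241 to 0.565 of MT-ATP6, and this ratio had no order by line. Its log2 fold change in MOLM-14 was 1.03 (SE 0.29, adjusted p = 0.0125), a call that was lost when any 1 of the 3 MOLM-14 libraries was left out. MT-ND4L stood at 15.8, 16.7 and 25.2 CPM in OCI-AML3, against 56, 52.4 and 41.4 CPM in MOLM-14, 26, 28.8 and 26.5 CPM in MV4-11 and 38.9, 38.1 and 33.3 CPM in KG-1a. It was lower in OCI-AML3 (-0.86, SE 0.18, adjusted p = 0.00108) and higher in MOLM-14 (0.87, SE 0.15, adjusted p = 0.000296), as its partner MT-ND4 was.

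MT-ND6 (chrM 14149 to 14673) is the protein gene read from the other strand, together with 8 tRNA genes. It stood at 2.27, 2.14 and 1.13 CPM in MOLM-14, 5.26, 1.66 and 1.09 CPM in OCI-AML3, 0, 0.519 and 0.726 CPM in MV4-11 and 1.11, 1.26 and 0.113 CPM in KG-1a. The highest value, in the OCI-AML3 pioglitazone library, rests on 6 counts, and no library held more than 73 counts. The 0 in the MV4-11 pioglitazone library allows up to 0.398 CPM by counting error. No line or treatment call was made for MT-ND6 by edgeR, and its log2 fold change in MOLM-14 was 0.99 with a 95% interval of -0.47 to 2.44. The call by limma-voom was higher in MOLM-14 (1.33, adjusted p = 0.0386) and lower in MV4-11 (-1.91, adjusted p = 0.0342).

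The tRNA genes were near the lower limit of these libraries. Purification on silica columns recovers RNAs as short as tRNAs poorly, and its part in the low counts was not tested. Over the 12 libraries, tRNA was counted here at 1502 counts in all. Counts were found for 21 of the 22 genes, and for 2, MT-TF and MT-TL1, in all 12 libraries. MT-TG had none, 14 genes never exceeded 10 counts in a library, and 19 had too few counts to be tested. The 8 genes of the minus strand held 206 of these counts and the plus-strand genes 1296.

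Of the 3 tested, MT-TF gave 42.4% of all tRNA counts and MT-TM had the largest fold changes, so both are shown, 5′ to 3′ as DNA on the plus strand from GENCODE 29 (build GRCh38, chrM:577-647 and chrM:4402-4469), with the anticodon for phenylalanine or methionine in capitals.
MT-TF: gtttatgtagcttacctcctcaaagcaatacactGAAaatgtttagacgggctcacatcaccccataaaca
MT-TM: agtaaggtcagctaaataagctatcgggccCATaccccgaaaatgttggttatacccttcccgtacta
MT-TF is the first gene of the precursor that also holds the rRNAs. It stood at 0.729, 1.07 and 2.12 CPM in the MOLM-14 pioglitazone, darglitazone and DMSO libraries, 7.90, 0.618 and 5.42 CPM in OCI-AML3, 0.517, 2.87 and 0.829 CPM in MV4-11 and 3.42, 2.72 and 0.905 CPM in KG-1a, with no order by line or treatment.

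MT-TM stood at 1.81, 2.35 and 0.518 CPM in the MV4-11 pioglitazone, darglitazone and DMSO libraries, against 0.214, 0.321 and 0.0994 CPM in MOLM-14, 5.26, 0.285 and 0.149 CPM in OCI-AML3 and 0.302, 0.209 and 0 CPM in KG-1a. The value of the OCI-AML3 pioglitazone library, above all others, came from 6 counts. MT-TM was called higher in MV4-11 (log2 fold change 2.45, SE 0.78, adjusted p = 0.0204, with 23.3% of all genes tested called higher). The call was lost without the MV4-11 darglitazone library, which held 77 of the 133 counts of MT-TM over all libraries (1.89, adjusted p = 0.21), and without the MV4-11 DMSO library (2.29, adjusted p = 0.101).

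MT-TL1, which carries leucine (chrM 3230 to 3304, plus strand), stood at 2.83, 2.35 and 1.85 CPM in MOLM-14, against 2.63, 0.903 and 0.658 CPM in OCI-AML3, 0.129, 0.824 and 0.311 CPM in MV4-11 and 1.11, 1.88 and 1.36 CPM in KG-1a. It was called higher in MOLM-14 (1.44, SE 0.53, adjusted p = 0.0428) and lower in MV4-11 (-1.76, SE 0.65, adjusted p = 0.0437). Both calls were lost when any 1 of the 3 MOLM-14 libraries was left out, with adjusted p of 0.0624 to 0.223 over both lines.

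With pioglitazone, most mitochondrial genes had positive log2 fold changes against DMSO and 0 of the 18 tested passed the threshold in edgeR, where 0% of all genes tested did. At an unadjusted p under 0.05 there were 7 of the 18, against 5.96% of all genes. They were MT-RNR1, MT-RNR2, MT-CO1, MT-ND1, MT-ND2, MT-ND4 and MT-TM, all positive. DESeq2, which gave an adjusted p to 10 of the 18 and to 2865 of the 15424 genes, called 1 (MT-CO1), where it called 74 genes or 0.48% of all genes tested. Of the genes with an adjusted p it called 2.58%. With limma-voom, 0 were called. The median of the 13 protein genes was 0.36, with 11 positive, against -0.02 over all genes tested. Within single lines this median was 0.83 in OCI-AML3, whose pioglitazone library is the shallowest. It was 0.34 in MOLM-14, 0.21 in KG-1a and 0.12 in MV4-11.

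MT-CO1 had the smallest p. From the levels given above it averaged 1149 ± 295 CPM with pioglitazone and 759 ± 191 CPM with DMSO (SD, n = 4 each). After TMM scaling, the log2 ratio to DMSO was 1.11 in OCI-AML3, 0.54 in MV4-11, 0.39 in KG-1a and 0.34 in MOLM-14, positive in 4 of 4 lines. Scaled by total counts alone, the KG-1a pioglitazone library lay below its DMSO library (825 against 845 CPM). The pioglitazone and DMSO levels overlap across lines. The fit gave 0.60 (SE 0.13) with an adjusted p of 0.392 in edgeR. DESeq2 gave 0.63 with an adjusted p of 0.00649, and with no filter on low counts edgeR gave 0.53 with an adjusted p of 0.0159 and also called MT-RNR2 (0.34, adjusted p = 0.00435). The range of adjusted p over all alternatives was 0.00649 to 1. With the pioglitazone libraries of OCI-AML3 and KG-1a left out, which stand apart in depth and in the ribosomal DNA entry, it was 0.46 (adjusted p = 1).

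MT-RNR2 had 0.42 (SE 0.12, adjusted p = 0.695) and was positive in 4 of 4 lines, from 0.17 in MOLM-14 to 0.62 in OCI-AML3. With both of those libraries left out it was 0.22. MT-RNR1 had 0.39 (SE 0.17, adjusted p = 0.829) and was 1.05 in OCI-AML3, against -0.09 to 0.31 in the other 3 lines. MT-ND1 had 0.55 (SE 0.16, adjusted p = 0.627) and MT-ND4 0.39 (SE 0.14, adjusted p = 0.751), each positive in 4 of 4 lines after TMM scaling. MT-ND2 had 0.70 (SE 0.24, adjusted p = 0.735), with 1.51 in OCI-AML3 and 1.18 in KG-1a against 0.39 in MV4-11 and -0.04 in MOLM-14, and it was 0.20 without the pioglitazone libraries of OCI-AML3 and KG-1a. After TMM scaling, ratios were positive in all 4 lines for 5 protein genes (MT-ND1, MT-CO1, MT-CO2, MT-CO3 and MT-ND4), for MT-RNR2 and for MT-TM, as they were for 5.98% of all genes tested. That of MT-CO2 in MOLM-14 was 0.0018. Scaled by total counts alone, KG-1a lay lower with pioglitazone than with DMSO for MT-ND1 (36.7 against 42.6 CPM), MT-CO3 (581 against 748) and MT-ND4 (139 against 169), as for MT-CO1. It lay higher for MT-CO2 (135 against 128 CPM), MT-RNR2 (91354 against 86900) and MT-TM (0.229 against 0).

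MT-TM had the largest fold change with pioglitazone, 2.91 (SE 0.97, adjusted p = 0.735). It rests on 28 counts over the pioglitazone libraries and 18 over the DMSO libraries, and it was 1.34 with the same pair of libraries left out. MT-TL1 had 0.41 (SE 0.66) and MT-TF -0.01 (SE 0.67), with ratios of either sign between lines.

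With darglitazone, 0 of the 18 genes passed the threshold against DMSO in edgeR, where 0% of all genes tested did, and 4 had an unadjusted p under 0.05, against 3.4% of all genes. DESeq2 and limma-voom called 0 of the 18 as well. The median of the 13 protein genes was 0.20 with 12 positive, against 0.01 over all genes. MT-CO1 again had the smallest p, at 1019 ± 159 CPM with darglitazone and 759 ± 191 CPM with DMSO (SD, n = 4 each). Its log2 ratio was 0.63 in MV4-11, 0.50 in KG-1a, 0.47 in OCI-AML3 and 0.19 in MOLM-14, and the fit gave 0.45 (SE 0.13, adjusted p = 1, edgeR). The other 3 were MT-ND4 (0.37, SE 0.14), MT-CO3 (0.28, SE 0.11) and MT-RNR2 (0.31, SE 0.12). MT-CO1, MT-TL1 and MT-TM were positive in all 4 lines, as 7.09% of all genes tested were. For MT-TM, 77 of the 87 darglitazone counts came from MV4-11. Its darglitazone and DMSO counts were 3 and 3 in MOLM-14, 6 and 10 in OCI-AML3, and 1 and 0 in KG-1a. By line the median over the protein genes was 0.50 in KG-1a, 0.48 in MV4-11, 0.11 in MOLM-14 and -0.12 in OCI-AML3. The drugs share the DMSO libraries, so the 2 comparisons are not independent of each other.

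**Figure D5:**
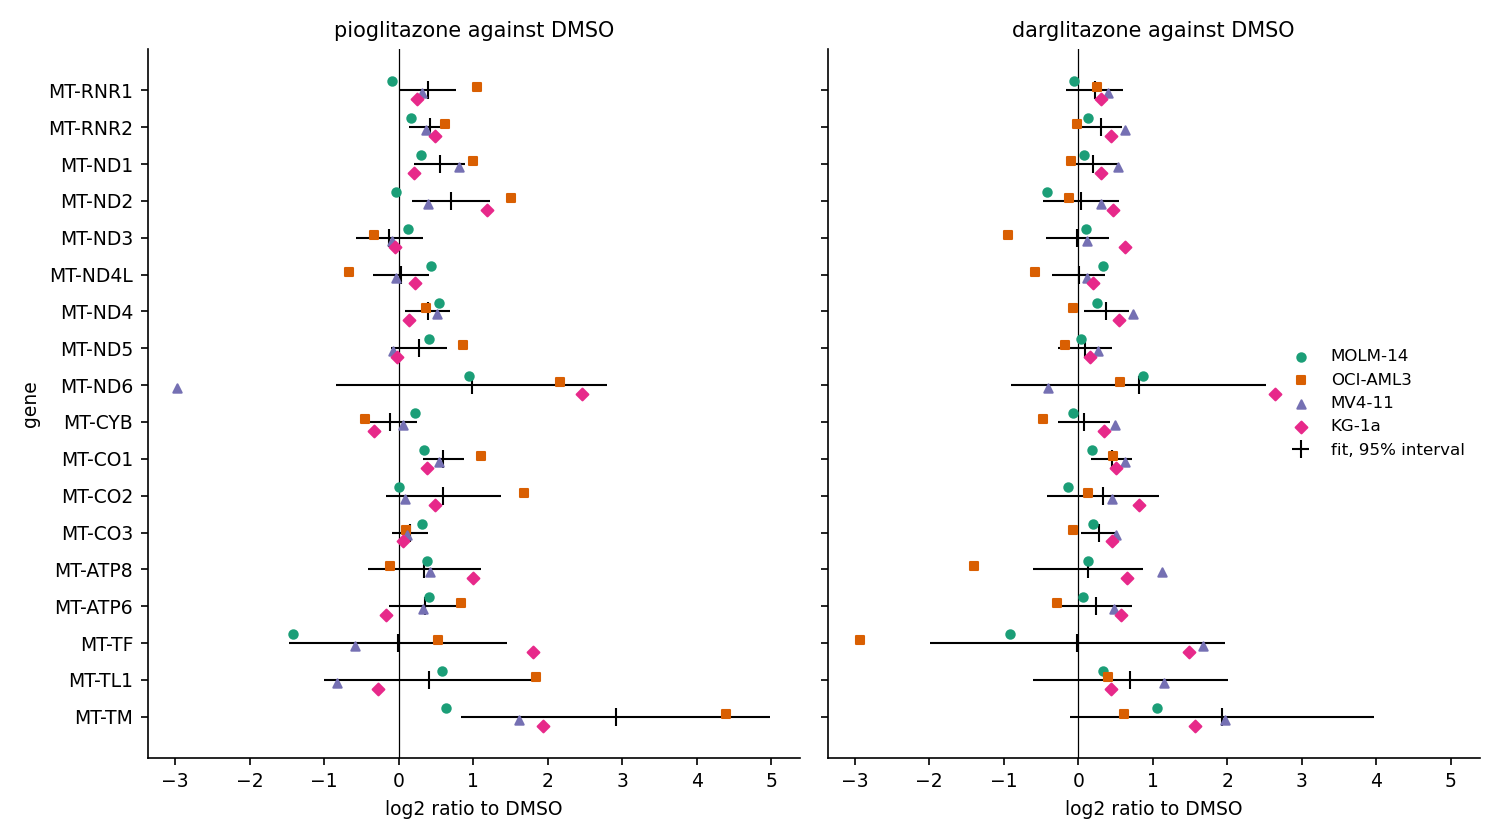
Log2 ratio to DMSO of the 18 tested mitochondrial genes with pioglitazone (left) and darglitazone (right), with 1 symbol per cell line (prior count of 2) and the fit over the 4 lines with its 95% confidence interval in black. With TMM scaling, MT-CO1 is right of 0 in all 4 lines with both drugs. The MV4-11 symbol of MT-ND6 at -2.97 with pioglitazone comes from a library with 0 counts.

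Set against each other at the same dose and time, darglitazone and pioglitazone gave no call among the 18 genes (0 by edgeR and limma-voom, and 0 of the 11 to which DESeq2 gave an adjusted p, with 0% of all genes called by edgeR). Pioglitazone carries an ethylpyridine tail and darglitazone a phenyloxazole tail on the shared thiazolidinedione ring. The median of darglitazone against pioglitazone over the 13 protein genes was -0.15, against 0.03 over all genes tested, and 2 genes had an unadjusted p under 0.05, against 3.51% of all genes. These were MT-ND2 (-0.67, SE 0.24, adjusted p = 0.98) and MT-ND1 (-0.35, SE 0.16, adjusted p = 0.98). For MT-CO1 the difference was -0.15 with a 95% interval of -0.43 to 0.12, and for MT-RNR2 -0.11 with -0.39 to 0.17. MT-ND2 was -0.20 with the pioglitazone libraries of OCI-AML3 and KG-1a left out, and the median over the protein genes was 0.03 without the OCI-AML3 pioglitazone library alone.

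A test of a line-by-drug term called 0 of the 18 genes in edgeR, against 0.00648% of all genes tested. At an unadjusted p under 0.05 there were 0 of the 18, against 3.05% of all genes. DESeq2 and limma-voom called 0, with 1 and 3 at an unadjusted p under 0.05. Within a line the model treats the drugs as repeats, apart from a mean difference between them, and it leaves 3 residual degrees of freedom.

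The nuclear genes that serve mitochondrial RNA were not called with either drug, and the share of them that differed between lines was near that of all genes for the 2 larger lists. Of 22 genes of mitochondrial transcription and DNA maintenance, 40 of RNA processing and 8 tested regulators, edgeR, DESeq2 and limma-voom called 0 in each treatment comparison and for line by drug. At an unadjusted p under 0.05 edgeR gave 1, 4 and 0 of these lists with pioglitazone, where 5.96% of all genes passed. There were 1, 1 and 0 with darglitazone (3.4% of all genes) and 0, 2 and 0 for darglitazone against pioglitazone (3.51%). For line by drug edgeR gave 0, 1 and 0 (3.05%). Between lines, 16 of the 22 genes of transcription and DNA maintenance differed, where 72.6% of all genes did. In MOLM-14, 11 were higher and 2 lower than in the other lines, with a median log2 fold change of 0.46 against 0.04 over all genes, of which 23.5% were called higher and 17.7% lower. In OCI-AML3, 8 were higher and 4 lower, with a median of 0.19, where 23% and 19.4% of all genes were. In MV4-11, 4 were higher and 7 lower, with a median of -0.23, where 23.3% and 17.5% of all genes were. In KG-1a, 4 were higher and 9 lower, with a median of 0.02, where 26.9% and 27.2% were. TFAM, which packs mitochondrial DNA and starts its transcription, had a log2 fold change of -0.32 with pioglitazone (SE 0.14, adjusted p = 0.822, edgeR). POLRMT, the mitochondrial RNA polymerase, had -0.29 (SE 0.20, adjusted p = 0.929). With pioglitazone and DMSO, POLRMT stood at 19.3 and 45.4 CPM in OCI-AML3, whose pioglitazone library is the shallowest. It stood at 106 and 108 CPM in MOLM-14, 76.3 and 90.0 CPM in MV4-11 and 92.2 and 112 CPM in KG-1a. The smallest p between lines belonged to RRM2B, a subunit of ribonucleotide reductase, and TK2, the mitochondrial thymidine kinase. RRM2B stood at 76.3, 69.8 and 97.1 CPM in the OCI-AML3 pioglitazone, darglitazone and DMSO libraries, against 18.3, 15.2 and 19.9 CPM in MOLM-14, 45.3, 39.97 and 49.3 CPM in MV4-11 and 31.2, 29.1 and 30.2 CPM in KG-1a. TK2 was highest in MV4-11, at 70.2, 76.3 and 65.3 CPM, against 11.9 to 38.2 CPM in the other 9 libraries.

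Of 40 genes of mitochondrial RNA processing, stability and modification, 31 differed between lines, where 72.6% of all genes did. In MOLM-14, 17 were higher and 1 lower, with a median of 0.32 (23.5% and 17.7% of all genes). In OCI-AML3, 11 were higher and 4 lower, with a median of 0.24 (23% and 19.4% of all genes). In MV4-11, 3 were higher and 11 lower, with a median of -0.20 (23.3% and 17.5%), and in KG-1a 4 were higher and 16 lower, with a median of -0.29 (26.9% and 27.2%). PUS1, a pseudouridine synthase of tRNAs, stood at 98.7, 82.7 and 106 CPM in the MOLM-14 pioglitazone, darglitazone and DMSO libraries, against 20.5 to 63.8 CPM in the other 9 (log2 fold change 1.38, SE 0.14, adjusted p = 1.92e-06). GRSF1, which binds G-rich mitochondrial RNAs, stood at 41.9, 38.7 and 41.9 CPM in the KG-1a libraries, against 76.3 to 110 CPM in the other 9 (-1.16, SE 0.11, adjusted p = 4.25e-07). With the drugs, the smallest p were those of ERAL1 (-0.40, adjusted p = 0.829) and TRUB2 (-0.29, adjusted p = 0.829) with pioglitazone and of TRMT61B (-0.56) and FASTKD3 (-0.52) with darglitazone, both at an adjusted p of 1. Of 10 regulators of mitochondrial content 8 were tested, and all 8 differed between lines, where 72.6% of all genes did. Higher and lower calls numbered 4 and 0 in MOLM-14 (23.5% and 17.7% of all genes), 3 and 1 in OCI-AML3 (23% and 19.4%), 1 and 5 in MV4-11 (23.3% and 17.5%), and 1 and 3 in KG-1a (26.9% and 27.2%). PPRC1, a coactivator of the PGC-1 family, was higher in MOLM-14 (0.58, SE 0.12) and lower in MV4-11 (-0.77, SE 0.13). PPARGC1B, a second coactivator of that family, was higher in OCI-AML3 (0.68, SE 0.16) and lower in KG-1a (-0.65, SE 0.17). MYC had 0.23 (SE 0.12, adjusted p = 1) with darglitazone, YY1 had -0.17 (SE 0.11, adjusted p = 0.909) with pioglitazone, and neither was called.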

How the data were processed

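RNA of 12 libraries was measured by sequencing. Per the labels' protocols, total RNA was extracted on columns and made into stranded libraries with removal of rRNA. The authors' deposited table holds an estimated count for each transcript and library, not normalized, and 89.8% of the nonzero values are fractional (tolerance 1e-06). STAR, featureCounts, DESeq2, fastp and FastQC, with the GRCh38 build, are named per the submitters' processing notes. The tool that gave the estimated counts, its treatment of reads with several matches and all versions are not given in the sources used here, so counts of genes with near-identical nuclear copies are uncertain.

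Counts were summed per gene with the GENCODE 29 annotation of GRCh38 (86 of 203027 transcripts had no match and were left out, at most 0.0169% of a library) and rounded to whole numbers. The filter filterByExpr of edgeR 4.0.16 (R 4.3.3), with the line as group, a minimum count of 10 and a minimum total of 15, kept 15424 of 57865 genes. Library sizes were scaled by TMM. A model with line and treatment as terms was fitted to all 12 libraries (6 residual degrees of freedom) and tested with edgeR's quasi-likelihood F test in its robust form. A further model tested line by drug (3 residual degrees of freedom). A call is an adjusted p under 0.05 after Benjamini-Hochberg adjustment across every gene in the fit. The line pairs the libraries by design. Ratios in single lines used a prior count of 2. The procedure was tested on simulated data. DESeq2 1.42.0 and limma-voom (limma 3.58.1), other scalings, no filter, thinning to the shallowest depth, adding nuclear copies and leaving out libraries were the alternatives. Intervals and limits cover counting or fitting error only, and nothing says that libraries came from separate repeat cultures.

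The members and the gene lists were chosen with earlier results of these data known, so shares, medians and ratios over them are descriptions. Values in every library are given for both rRNA genes, for MT-CO1, MT-ND6, MT-ATP6, MT-ATP8 and MT-ND4L, for the protein genes with the smallest p in each treatment comparison, and for the 3 protein genes and the 3 tRNA genes with the smallest p between lines. For the nuclear lists, members with the smallest p are named.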

Additional observations from a re-analysis of the deposited data

Results flagged for a closer look

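Each gene that was tested was also looked at within the 4 libraries of a treatment, and a library was singled out when its distance to the nearest other library was more than 0.829 of the whole range (Dixon's limit for 4 values at the 95% level). This gave 6 of 54 gene and treatment groups. The limit flags about 1 in 20 unrelated groups whose 4 values come from a single population. The groups here share the same 4 lines, which differ, so that rate cannot be set against the 6 of 54. MOLM-14 was the highest library in 4 of the 6 flagged groups, by the same line difference that the report describes. MT-ND1 stood at 159 CPM in the MOLM-14 darglitazone library, against 34.8 to 55.3 CPM in the other 3 darglitazone libraries, and at 151 CPM in the MOLM-14 DMSO library, against 37.1 to 42.0 CPM. MT-ND2 stood at 54.2 CPM in the MOLM-14 DMSO library, against 12.1 to 18.2 CPM. MT-ND4 stood at 414 CPM in the MOLM-14 pioglitazone library, against 147 to 184 CPM. MT-RNR1 stood at 1.63e+04 CPM in the KG-1a darglitazone library, against 8055 to 9180 CPM in the other darglitazone libraries. MT-TM stood at 2.35 CPM, from 77 counts, in the MV4-11 darglitazone library, against 0.209 to 0.321 CPM.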

How the results depend on the processing

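With pioglitazone the count of chrM genes called was 0, but 2 with no filter on low counts (MT-CO1 with an adjusted p of 0.0159 and MT-RNR2 with 0.00435) and 1 with DESeq2 (MT-CO1). It stayed at 0 with darglitazone, between the drugs and for line by drug under all alternatives. With no replicate block, that is with the line left out of the paired model, 0 genes were called in each treatment comparison, and at an unadjusted p under 0.05 there were 2, 0 and 0 of 18 for pioglitazone, darglitazone and darglitazone against pioglitazone, where the paired model had 7, 4 and 2. The count in OCI-AML3 was 11 with the pioglitazone libraries of OCI-AML3 and KG-1a left out (7 in the report), and in MV4-11 it was 4 with thinned counts (7 in the report). With each library left out in turn, the counts ran from 3 to 7 in KG-1a, 3 to 10 in MV4-11, 7 to 10 in OCI-AML3 and 9 to 12 in MOLM-14.

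The median of the protein genes for darglitazone against pioglitazone (-0.15) turned to 0.03 without the OCI-AML3 pioglitazone library and to 0.10 without the OCI-AML3 darglitazone library, and with each library left out it ran from -0.26 to 0.10. In KG-1a (0.05) it turned to -0.03 with no filter, and to -0.06 and -0.15 without the OCI-AML3 and the KG-1a darglitazone libraries, with a range of -0.15 to 0.16. The mean log2 ratio of the summed tRNA counts (0.27 with pioglitazone, -0.15 with darglitazone) turned to -0.10 and 0.37 without OCI-AML3, and with each line left out it ran from -0.10 to 0.54 and from -0.64 to 0.37. The cause was not tested. The class sums of rRNA (0.29 and 0.26 with pioglitazone and darglitazone) and of protein genes (0.29 and 0.30) kept their sign. With pioglitazone they were 0.16 and 0.12 without OCI-AML3 and both 0.47 over nuclear protein-coding counts, the protein sum was 0.46 without KG-1a, and with darglitazone the rRNA sum was 0.17 without MV4-11. Of the values for single genes, 3098 kept their side of the threshold, 55 passed it under an alternative and 90 fell short of it. Of 2531 fold changes under alternatives, 133 changed sign, in 40 of 126 pairs of a gene and a comparison, and 0 of these were called in either fit. Depth limits the tRNA genes and MT-ND6: with counts thinned to the shallowest library 14 members were tested.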
